A study of Mus musculus with 9 samples.

Results

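The BCL2 family genes examined here were the 10 members Bcl2, Bcl2l1, Mcl1, Bax, Bak1, Bcl2l11, Bbc3, Pmaip1, Bid and Bad. They are part of 47643 genes counted in long-term hematopoietic stem cells (LT-HSCs). The members were chosen by name and not by a threshold on measured values, although earlier results of these data were known. Products of this family set whether the outer mitochondrial membrane stays intact. Pro-survival members hold it closed, the effectors BAX and BAK form pores in it that release cytochrome c, and BH3-only members respond to stress by binding the pro-survival proteins or by switching on the effectors. In blood-forming stem cells MCL1 is known to be required for survival. Signaling through class IA PI3-kinase and AKT is known to touch this family at several points, because AKT phosphorylates BAD and restrains FOXO factors, which can switch on Bcl2l11 and Bbc3.

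RNA was measured by bulk sequencing in 9 libraries, 3 for each of 3 genotypes on a C57BL/6 background. TKO cells carried Pik3ca lox/lox, Pik3cb lox/lox and germline Pik3cd-/- together with Mx1-Cre. The δKO cells, from littermates, carried the same floxed alleles and Pik3cd-/- but no Cre, so they lacked P110δ alone, and TKO and δKO cells shared the Pik3cd deletion. WT cells were WT;Mx1-Cre. The Mx1 promoter is active across hematopoietic cells, so deletion in TKO was not limited to stem cells. Marrow of each genotype was transplanted into lethally irradiated B6.SJL recipients. Recipients of all 3 genotypes were given 2 injections of the synthetic RNA pIpC, 250 μg each and 48 hours apart, to activate Cre. Marrow was harvested 4 weeks after pIpC, pooled from 7 recipients per group, and donor-derived Lin-cKit+Sca1+Flk2-CD48-CD150+ LT-HSCs were sorted. How the libraries of a genotype derive from that pool is not given in the sources used here, so p-values measure the spread between libraries, which may be partly technical. A δKO library whose number matched no label is called the unnumbered δKO library. TKO against δKO asks what loss of P110α and P110β adds to loss of P110δ, δKO against WT asks about loss of P110δ, and TKO against WT asks about all 3 isoforms. TKO and δKO cells also differed by the presence of Mx1-Cre. The δKO cells differed from WT by the floxed alleles and the absence of Cre as well as by Pik3cd. These differences cannot be told apart within a comparison.

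Short pieces of sequence upstream of Mcl1, Bcl2l11 and Bbc3 are shown, because the GC box and the FOXO core were the motifs found in the family's promoter windows at shares above those of all promoters. They are from RefSeq on GRCm38.p6, the mm10 genome, on the plus strand. Capitals mark the motif, which was GGGCGG or its reverse complement for the GC box and GTAAACA or its reverse complement for the FOXO core. The stretch for Mcl1 is the 250 bases before its transcription start, chr3:95658471-95658720. The Bcl2l11 stretch is chr2:128125801-128125827, with the motif beginning 227 bases before the start. The Bbc3 stretch is chr7:16310084-16310110, with the motif beginning 167 bases before a start that lies inside the annotated gene.
Mcl1 GC box: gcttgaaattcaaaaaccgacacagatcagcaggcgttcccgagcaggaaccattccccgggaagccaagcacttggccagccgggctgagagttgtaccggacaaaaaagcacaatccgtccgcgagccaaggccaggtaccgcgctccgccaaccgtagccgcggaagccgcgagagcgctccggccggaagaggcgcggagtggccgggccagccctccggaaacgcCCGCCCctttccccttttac
Bcl2l11 FOXO core: agacactaggGTAAACAcgccggggtg
Bbc3 FOXO core: ctggcgggttTGTTTACaaacaatggg

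Promoter windows of 250 bases were matched for 9 members, with 15 windows among them, and were searched on both strands. A GC box lay in 10 of the 15 windows, which belonged to 7 of the 9 members, and in 32.7% of 32851 promoters of the same length. The FOXO core lay in 2 of the 15 windows, those of Bcl2l11 and Bbc3, against 3.17% of all promoters. CCAAT was found for Bcl2l11, Bbc3 and Bad and in 33.8% of all promoters. TATAAA, TGACGTCA and TTCNNNGAA were found in 0 of the 15 windows and in 12.4%, 1.55% and 7.02% of all promoters. The members' windows had a median GC content of 64.4% and a median of 21 CpG dinucleotides, against 52.4% and 6 in all promoters. A match describes letters only, and binding was not measured.

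Library totals lay between 31300343 and 60386097 counts, lowest in the unnumbered δKO library, and a tested gene had a median of 188 to 475 counts per library. Among the targeted genes, Pik3cb was at 63.6, 44.6 and 60.4 CPM (read counts scaled to a common library size) in WT, at 101, 33.2 and 68.8 in δKO, and at 33.5, 25.5 and 33.9 in TKO. Pik3ca counts did not separate the genotypes, at 45.8 to 65.0 CPM in WT, 41.3 to 88.2 in δKO and 52.8 to 68.0 in TKO. Pik3cd was at 98.2 to 138.6 CPM in WT, 38.5 to 91.2 in δKO and 71.2 to 73.5 in TKO. Gene-level counts include any transcript left by the deleted alleles. Among cell type markers, the 12 for HSCs summed to 1718 to 2117 CPM in TKO, 1234 to 1459 in WT and 1243 to 2669 in δKO. The sum of 10 neutrophil markers was 162.9 to 3042 CPM in TKO, 5047 to 11780 in WT and 259.5 to 11490 in δKO. Sums for erythroid, B cell and T cell markers reached at most 76.3, 12.4 and 51.6 CPM, and Cd3e, Cd3g and Cd8a were at 0 in all 9 libraries. Megakaryocyte markers summed to 165.9 to 569.2 CPM and monocyte and macrophage markers to 47.9 to 368.9 CPM, with C1qa at 0 in 7 of 9 libraries. Xist was at 3227 to 6393 CPM in WT replicate 2, replicates 1 and 2 of δKO and replicates 1 and 2 of TKO. In the other libraries it was at 32.1 to 59.5 CPM, so high and low libraries were not evenly split over the genotypes. Replicate 1 of δKO and the unnumbered δKO library had the fewest genes detected, at 18180 and 18500, against 19703 to 22703 in the other 7, and δKO replicate 1 had the highest HSC marker sum. In bulk samples, fewer cells of a type and less RNA per cell cannot be told apart.

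Mcl1 and Bak1 dominated the family's transcripts in every LT-HSC library. Scaled to exon length, Mcl1 stood at a mean of 111.2 CPM per kb over the 9 libraries, and Bak1, a pore-forming effector, stood at 50.9 CPM per kb. Mcl1 ranked highest and Bak1 next in 9 of 9 libraries. Mcl1 lay at the 98.8th percentile of tested genes on this scale and Bak1 at the 96.8th. Bcl2, the founding member, followed at 10.98 CPM per kb, and its range in every genotype lay below that of Bak1. From Bcl2 down, neighbours in the order overlapped between libraries. Their means were 7.58 CPM per kb for Bbc3, 5.48 for Bcl2l1, 4.83 for Bax, 4.46 for Bcl2l11, 4.18 for Bid, 3.92 for Bad and 1.10 for Pmaip1.

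**Figure D1:**
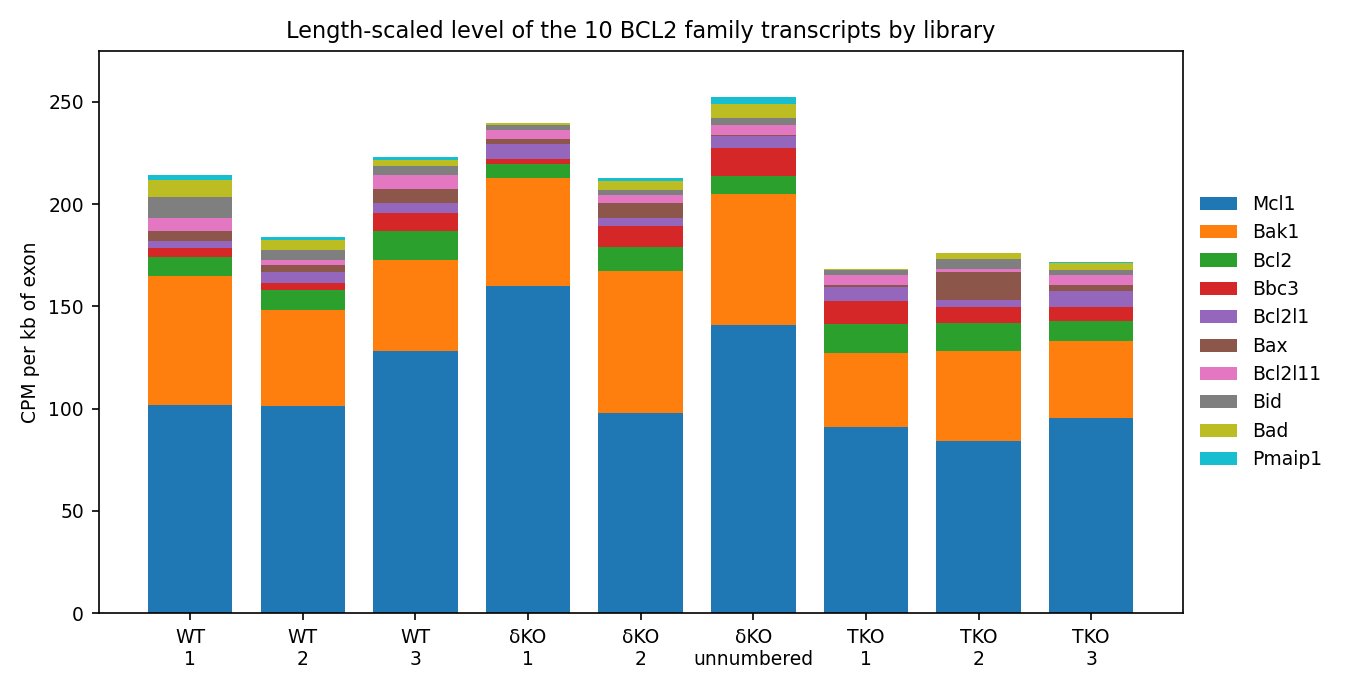
Stacked bars give the length-scaled level of the 10 BCL2 family transcripts (CPM per kb of exon, y axis) in each of the 9 LT-HSC libraries (x axis). Mcl1 and Bak1 form most of every bar, and the TKO bars reach 168.5 to 176.2 CPM per kb, below the lowest WT bar at 183.8.

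The summed level of the 10 transcripts was 168.5, 176.2 and 171.6 CPM per kb in the TKO libraries, 214.2, 183.8 and 223.1 in WT and 239.8, 212.6 and 252.3 in δKO. The TKO libraries lay below all 6 others. The share held by each role overlapped between genotypes. Pro-survival transcripts made up 63.3% ± 5.02 of the sum in TKO, 61.0% ± 6.40 in WT and 62.6% ± 9.64 in δKO (SD, n = 3 each). The effectors made up 26.1% ± 5.70, 27.4% ± 4.27 and 28.3% ± 6.87 in the same order, and the BH3-only transcripts 10.6% ± 0.775, 11.5% ± 2.76 and 9.11% ± 4.35. Mcl1 alone held between 46.0% and 66.7% of the sum. Replicate 1 of δKO gave the highest of these Mcl1 shares and the lowest BH3-only share, at 4.24%.

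No member passed the test in any comparison. A gene was called where edgeR's quasi-likelihood test gave a Benjamini-Hochberg adjusted p under 0.05 and a change of more than 2-fold, and 18205 genes were tested, all 10 members among them. TKO against WT called 0 members, against 0.00549% of all tested genes. TKO against δKO called 0 members and 0% of all genes, and δKO against WT called 0 members and 0.00549% of all genes. At an unadjusted p under 0.05 the members numbered 1 for TKO against WT (4.19% of all genes), 3 for TKO against δKO (10.2%) and 0 for δKO against WT (7.01%). These counts changed when single libraries were left out, which also leaves fewer libraries to test. The 3 for TKO against δKO became 0 without TKO replicate 1, 1 without TKO replicate 2, TKO replicate 3 or the unnumbered δKO library, and 2 without δKO replicate 1 or 2. Without TKO replicate 1 the log2 fold changes in that comparison were -0.57 for Mcl1, -0.61 for Bak1 and -3.26 for Pmaip1. With all libraries they were -0.56, -0.67 and -3.47. The 1 for TKO against WT became 0 without WT replicate 1 or TKO replicate 1, and was Bid in place of Pmaip1 without TKO replicate 2. The 0 for δKO against WT became 1 without δKO replicate 1 (Bbc3) or the unnumbered δKO library (Bid). DESeq2 fitted to all libraries and limma voom called 0 members. DESeq2 fitted to the TKO and WT libraries alone called 1 member, Pmaip1, among 418 of 17548 genes called, where edgeR on the same libraries called 9 genes and 0 members. The median log2 fold change over the members was -0.34 for TKO against WT, -0.11 for TKO against δKO and -0.21 for δKO against WT, beside 0.02, -0.06 and 0.05 over all genes tested. Each pair of comparisons shares the libraries of a genotype, so they are not independent of each other.

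**Figure D2:**
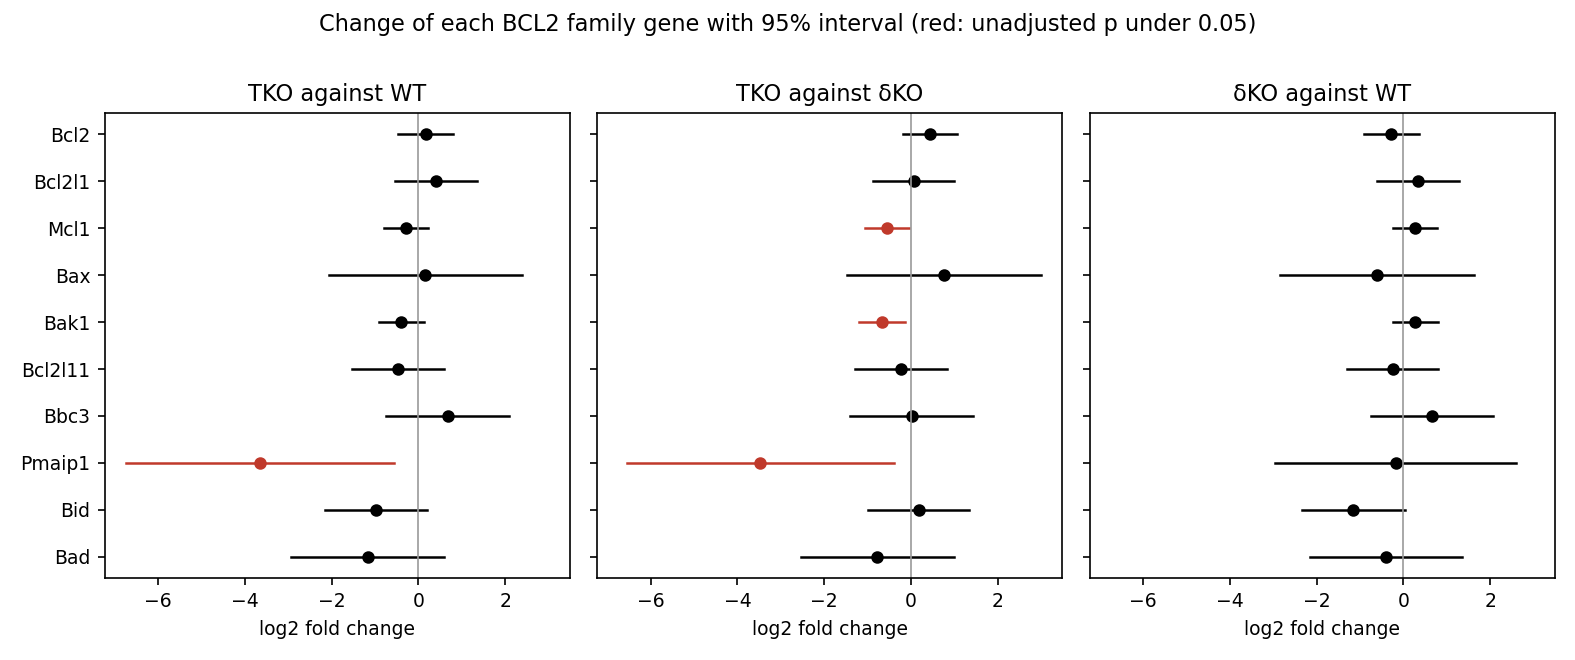
Log2 fold change (x axis) of each BCL2 family gene (y axis) in the 3 comparisons, with points for the edgeR estimate, lines for its 95% interval and red for an unadjusted p under 0.05. Pmaip1 has intervals below 0 in both TKO comparisons, Mcl1 and Bak1 do so against δKO, and Bax and Pmaip1 have the widest intervals.

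Among the pro-survival genes, Mcl1 (ENSMUSG00000038612.16, chromosome 3, 95658788 to 95663176) encodes a short-lived protein that binds BAK and BIM. Its level was 348.7, 346.1 and 438.3 CPM in WT, 546.5, 334.1 and 481.1 in δKO, and 310.9, 288.0 and 326.8 in TKO. All 3 TKO libraries lay below all 6 others, although δKO replicate 2 was only slightly above the highest of them. The TKO mean of 308.6 ± 19.5 CPM stood beside 377.7 ± 52.5 in WT and 453.9 ± 108.8 in δKO (SD, n = 3 each). Against δKO the TKO level was 0.680 times as high, a log2 fold change of -0.56 (SE 0.23, 95% interval -1.06 to -0.05), and edgeR gave an unadjusted p of 0.0337 and an adjusted p of 0.464. Against WT the log2 fold change was -0.29 (SE 0.23, 95% interval -0.80 to 0.21), with an edgeR adjusted p of 1.00. Without δKO replicate 1 the log2 fold change against δKO was -0.41 with an unadjusted edgeR p of 0.105.

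Bcl2 (ENSMUSG00000057329.7, chromosome 1, 106538178 to 106714274) encodes the family's founding survival protein, anchored in the outer mitochondrial membrane. It was at 88.0, 89.0 and 130.2 CPM in WT, at 64.9, 107.5 and 81.1 in δKO, and at 129.2, 126.9 and 88.3 in TKO. The groups overlapped in all comparisons. Its log2 fold change was 0.44 (SE 0.29, 95% interval -0.19 to 1.07) for TKO against δKO and 0.17 (SE 0.29, 95% interval -0.46 to 0.79) for TKO against WT, with edgeR adjusted p values of 0.611 and 1.00. The interval against WT leaves out a 2-fold difference in either direction. The log2 ratio of Mcl1 to Bcl2 per kb was 2.87 ± 0.39 in TKO, 3.32 ± 0.13 in WT and 3.85 ± 0.73 in δKO (SD, n = 3 each). TKO replicate 3, at 3.31, lay within the WT and δKO ranges of this ratio.

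Bcl2l1 (ENSMUSG00000007659.18, chromosome 2, 152780668 to 152831728) encodes BCL-XL, a survival protein best known in the erythroid and platelet lineages. The level was 16.6, 24.9 and 21.6 CPM in WT, 33.2, 19.0 and 27.6 in δKO, and 33.2, 15.2 and 35.01 in TKO. TKO libraries 1 and 3 were above every WT library while TKO replicate 2 was the lowest of all 9. The log2 fold change was 0.40 (SE 0.43) for TKO against WT and 0.06 (SE 0.43) for TKO against δKO, neither larger than its error, with edgeR adjusted p values of 1.00 and 0.971.

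**Figure D3:**
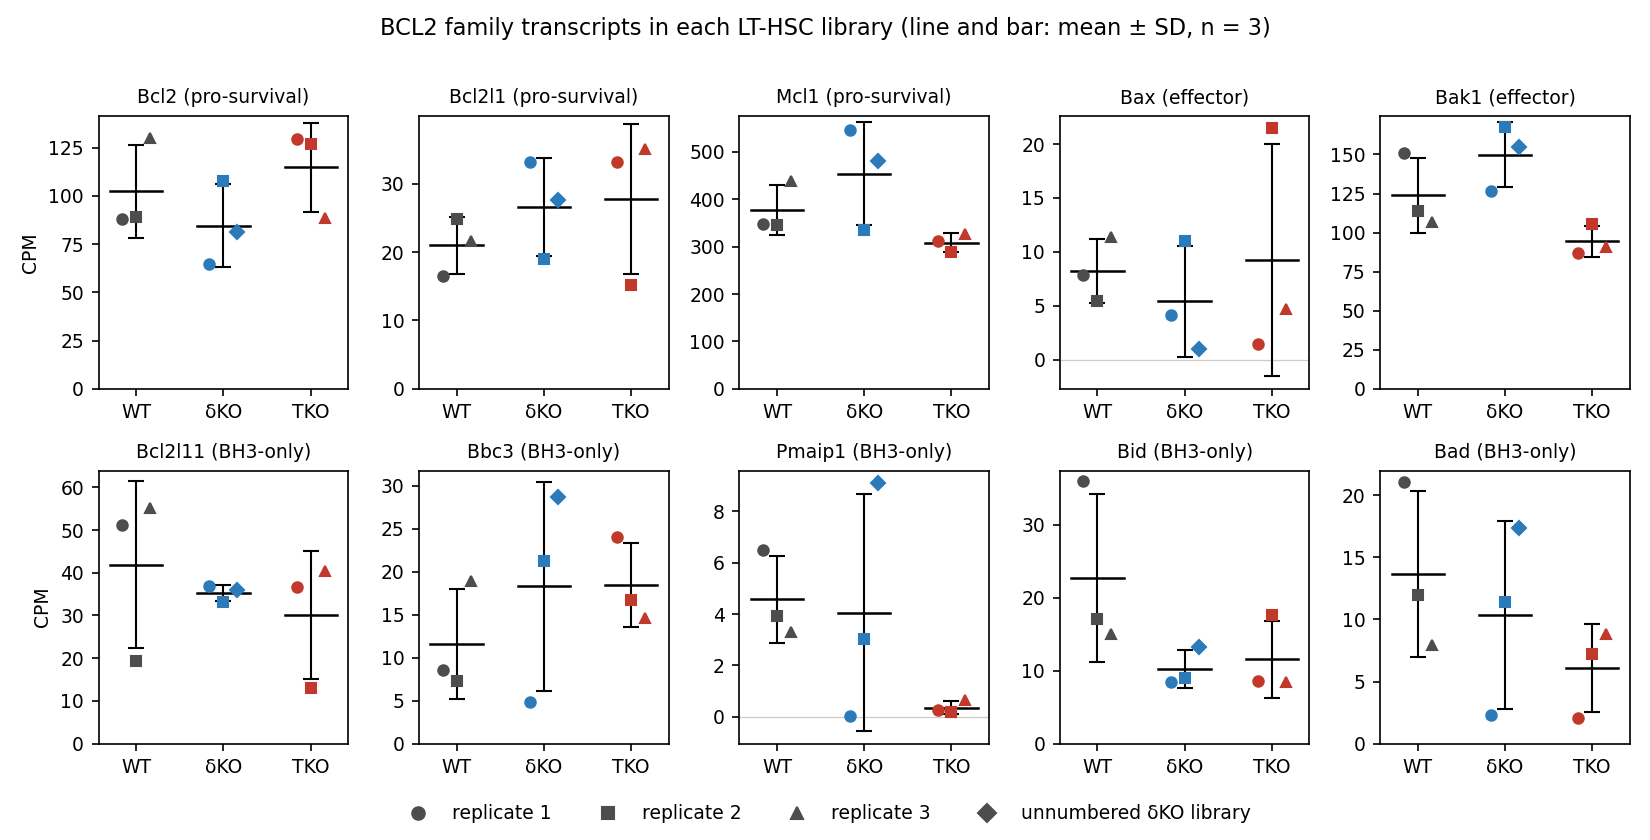
CPM (y axis) of each of the 10 genes in the WT, δKO and TKO libraries (x axis), with 1 point per library and the mean ± SD (n = 3) as line and bar. Pmaip1 lies under 1 CPM in all TKO libraries and in δKO replicate 1, and the TKO points for Mcl1 and Bak1 lie below those of the other genotypes.

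Of the effectors, Bak1 (ENSMUSG00000057789.13, chromosome 17, 27019810 to 27029009) encodes BAK, which sits in the mitochondrial outer membrane and is held inactive there by MCL1. It was at 151.1, 113.5 and 106.8 CPM in WT, at 126.9, 167.7 and 154.5 in δKO, and at 86.9, 105.4 and 90.7 in TKO. Every TKO library was lower than every WT and δKO library, with TKO replicate 2 close to WT replicate 3. The TKO level was 0.630 times that of δKO, a log2 fold change of -0.67 (SE 0.24, 95% interval -1.19 to -0.14), with an unadjusted edgeR p of 0.0168 and an adjusted p of 0.464. Against WT the log2 fold change was -0.39 (SE 0.24, 95% interval -0.91 to 0.13), with an edgeR adjusted p of 1.00. Ggnbp1 on the other strand covered 18.2% of the annotated Bak1 exon bases, and without a stated strand setting their reads cannot be told apart.

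Bax (ENSMUSG00000003873.10, chromosome 7, 45461697 to 45466898) encodes the effector that moves from the cytosol to mitochondria. Its level was 7.89, 5.46 and 11.3 CPM in WT, 4.15, 11.04 and 0.995 in δKO, and 1.41, 21.5 and 4.73 in TKO. The TKO libraries held both the highest value of all 9 and one of the lowest, and the spread within δKO and TKO exceeded any difference between genotypes. The log2 fold change was 0.16 (SE 1.02, 95% interval -2.06 to 2.38) for TKO against WT and 0.77 (SE 1.02, 95% interval -1.47 to 3.001) for TKO against δKO. The interval against WT reached beyond 2 log2 units in both directions. Leaving out TKO replicate 2 turned both values negative, at -1.43 and -0.82.

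Pmaip1 (ENSMUSG00000024521.7, chromosome 18, 66458533 to 66465565) encodes NOXA, a BH3-only protein that binds MCL1 and is a known p53 target. Of the BH3-only genes it had the largest fold difference in both TKO comparisons. Its level was 6.50, 3.94 and 3.29 CPM in WT, 0.0399, 3.03 and 9.11 in δKO, and 0.249, 0.203 and 0.636 in TKO. The counts behind these values were 387, 208 and 138 in WT, 1, 170 and 247 in δKO, and 13, 7 and 30 in TKO. All TKO libraries were lower than all WT libraries, but δKO replicate 1 was lower still, so TKO and δKO overlapped. The TKO level was 0.0799 times that of WT, a log2 fold change of -3.65 (SE 1.41, 95% interval -6.74 to -0.55), with an unadjusted edgeR p of 0.0247 and an adjusted p of 1.00. With 1 library left out in turn, the value against WT ran from -4.32 to -3.31. Against δKO the log2 fold change was -3.47 (SE 1.403), with an unadjusted edgeR p of 0.0299 and an adjusted p of 0.464. Without δKO replicate 1 that value was -4.05 with an adjusted edgeR p of 0.241, and without the unnumbered δKO library it was -2.08 with 0.597. DESeq2 fitted to TKO and WT alone gave a log2 fold change of -3.65 and an adjusted p of 0.00153, and the adjusted p ranged from there to 1.00 over the 19 alternatives that gave one.

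Pmaip1 and the neutrophil markers were low in the same libraries, though their order differed within genotypes. The summed neutrophil marker level was 11780, 5047 and 11670 CPM in WT, 259.5, 4459 and 11490 in δKO, and 162.9, 3042 and 900.6 in TKO, with none of its 10 genes at 0 in any library. The 4 lowest Pmaip1 values were in the 4 libraries with the lowest sums, δKO replicate 1 and the 3 TKO libraries, and the highest were in the unnumbered δKO library and WT replicate 1. Against this order, WT replicate 3 had a sum of 11670 CPM but less Pmaip1 than WT replicate 2, and TKO replicate 2 had the highest TKO sum and the least Pmaip1 of the TKO libraries. Since every TKO sum lay below every WT sum, the genotype and the neutrophil signal cannot be told apart in TKO against WT. An edgeR fit with the log2 neutrophil marker sum as a covariate was added after the data were seen. In it the log2 fold change of Pmaip1 was -0.34 in both TKO comparisons, with unadjusted edgeR p values of 0.872 against WT and 0.862 against δKO. In the same fit Mcl1 was at -0.62 and Bak1 at -0.56 for TKO against δKO, with unadjusted edgeR p values of 0.0225 and 0.0333 and adjusted values of 0.323 and 0.353. For TKO against WT they were at -0.44 and -0.16, with unadjusted edgeR p values of 0.154 and 0.581.

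Bcl2l11 (ENSMUSG00000027381.16, chromosome 2, 128126038 to 128162547) encodes BIM, a BH3-only protein that binds all pro-survival members. It was at 51.2, 19.4 and 55.1 CPM in WT, at 36.8, 33.2 and 36.0 in δKO, and at 36.8, 13.1 and 40.5 in TKO. Replicate 2 was the lowest in WT and in TKO, while the 3 δKO libraries differed little. The log2 fold change was -0.48 (SE 0.48, 95% interval -1.53 to 0.58) for TKO against WT and -0.23 (SE 0.48, 95% interval -1.28 to 0.82) for TKO against δKO. Its promoter window holds a FOXO core, as shown above, and no difference beyond the spread was seen with edgeR (adjusted p values of 1.00 and 0.899).

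Bbc3 (ENSMUSG00000002083.12, chromosome 7, 16308393 to 16318205) encodes PUMA, the p53-inducible BH3-only protein, and is the other gene with a FOXO core. Its level was 8.52, 7.23 and 18.9 CPM in WT, 4.87, 21.3 and 28.7 in δKO, and 24.0, 16.7 and 14.7 in TKO. The TKO libraries fell inside the δKO range and only partly above WT. The log2 fold change was 0.67 (SE 0.65, 95% interval -0.74 to 2.09) for TKO against WT and 0.01 (SE 0.64, 95% interval -1.40 to 1.42) for TKO against δKO, with edgeR adjusted p values of 1.00 and 0.995. With the neutrophil covariate these values were 1.72 and 0.81, with unadjusted edgeR p values of 0.0805 and 0.319. For TKO against WT that covariate cannot be told apart from genotype.

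Bid (ENSMUSG00000004446.12, chromosome 6, 120891930 to 120916853) links death receptors to mitochondria once caspase 8 cuts its protein. Its level was 36.0, 17.1 and 15.04 CPM in WT, 8.50, 9.01 and 13.2 in δKO, and 8.61, 17.6 and 8.48 in TKO. All δKO libraries were lower than all WT libraries, the 1 member of 10 without overlap in δKO against WT, where 7.39% of all genes were lower without overlap. The δKO level was 0.451 times that of WT, a log2 fold change of -1.15 (SE 0.54, 95% interval -2.33 to 0.04), with an edgeR adjusted p of 0.699. For TKO against WT the log2 fold change was -0.97 (SE 0.54, 95% interval -2.15 to 0.21), with overlapping libraries and an edgeR adjusted p of 1.00, and it was -0.46 with the neutrophil covariate. In TKO against WT that covariate cannot be told apart from genotype. The same covariate put δKO against WT at -0.85. For TKO against δKO the log2 fold change was 0.18 (SE 0.54, 95% interval -0.996 to 1.35), with an edgeR adjusted p of 0.934. Bcl2l13 on the other strand covered 17.7% of the Bid exon bases.

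Bad (ENSMUSG00000024959.13, chromosome 19, 6941861 to 6951899) encodes the BH3-only protein that AKT phosphorylates. It was at 21.03, 12.0 and 7.93 CPM in WT, at 2.27, 11.4 and 17.3 in δKO, and at 2.08, 7.24 and 8.86 in TKO. Every pair of groups overlapped, and the lowest values were in δKO replicate 1 and TKO replicate 1, the 2 libraries with the lowest neutrophil marker sums. The log2 fold change was -1.17 (SE 0.81, 95% interval -2.94 to 0.59) for TKO against WT and -0.77 (SE 0.80) for TKO against δKO, with edgeR adjusted p values of 1.00 and 0.770. With the neutrophil covariate, which cannot be told apart from genotype in TKO against WT, these values were 0.46 and 0.32. Gpr137 on the other strand covered 20.5% of its exon bases.

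Mcl1, Bak1 and Pmaip1 were thus the 3 members whose TKO and WT libraries did not overlap, each lower in TKO, where 7.47% of all tested genes did not overlap in that direction. For TKO against δKO these were Mcl1 and Bak1, beside 4.74% of all genes. The δKO and WT libraries overlapped for all 3. For δKO against WT the log2 fold change was 0.27 (SE 0.23) for Mcl1, 0.27 (SE 0.24) for Bak1 and -0.18 (SE 1.27) for Pmaip1, with edgeR adjusted p values of 0.815, 0.815 and 0.988. Among the other members in that comparison, values ran from -0.61 (SE 1.02) for Bax to 0.66 (SE 0.65) for Bbc3, apart from Bid. The Bax value was -1.675 without δKO replicate 2 and -0.115 without the unnumbered δKO library.

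Across the 9 libraries the members did not vary as a block. Of the 45 pairs, 24 had a Pearson correlation of log2 CPM above 0, and the median was 0.0362. Pmaip1 and Bad were the most alike, with r = 0.870 over the 9 libraries and 0.836 within genotypes, and both had their lowest values where neutrophil markers were low. Bcl2l1 and Bax were the most opposed, with r = -0.737. Mcl1 and Bak1 had r = 0.361 over the 9 libraries but -0.697 within genotypes, so the libraries of a genotype with more Mcl1 tended to have less Bak1. These correlations share libraries and depth and are given without a test.

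Over the 10775 tested genes averaging 5 CPM or more, those with the pattern closest to Bcl2 over the 9 libraries were Magi3 (r = 0.962), Vhl (r = 0.940) and Timmdc1 (r = 0.939). Those closest to Bcl2l1 were Kmt2c (r = 0.936), Gm17088 (r = 0.935) and Dcaf1 (r = 0.927). Those closest to Mcl1 were Kmt2e (r = 0.969), Btg1 (r = 0.968) and Snrnp48 (r = 0.959). These were the highest of many correlations over 9 points.

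The rest of the apoptosis pathway was examined through 62 other genes in 5 lists, of which 53 were tested. In each of the 3 comparisons edgeR called 0 of the 53. At an unadjusted p under 0.05, TKO against WT gave 1 higher and 0 lower, or 1.89% of the 53 against 4.19% of all genes. TKO against δKO gave 2 higher and 7 lower, or 17.0% against 10.2%, and δKO against WT gave 2 higher and 1 lower, or 5.66% against 7.01%.

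**Figure D4:**
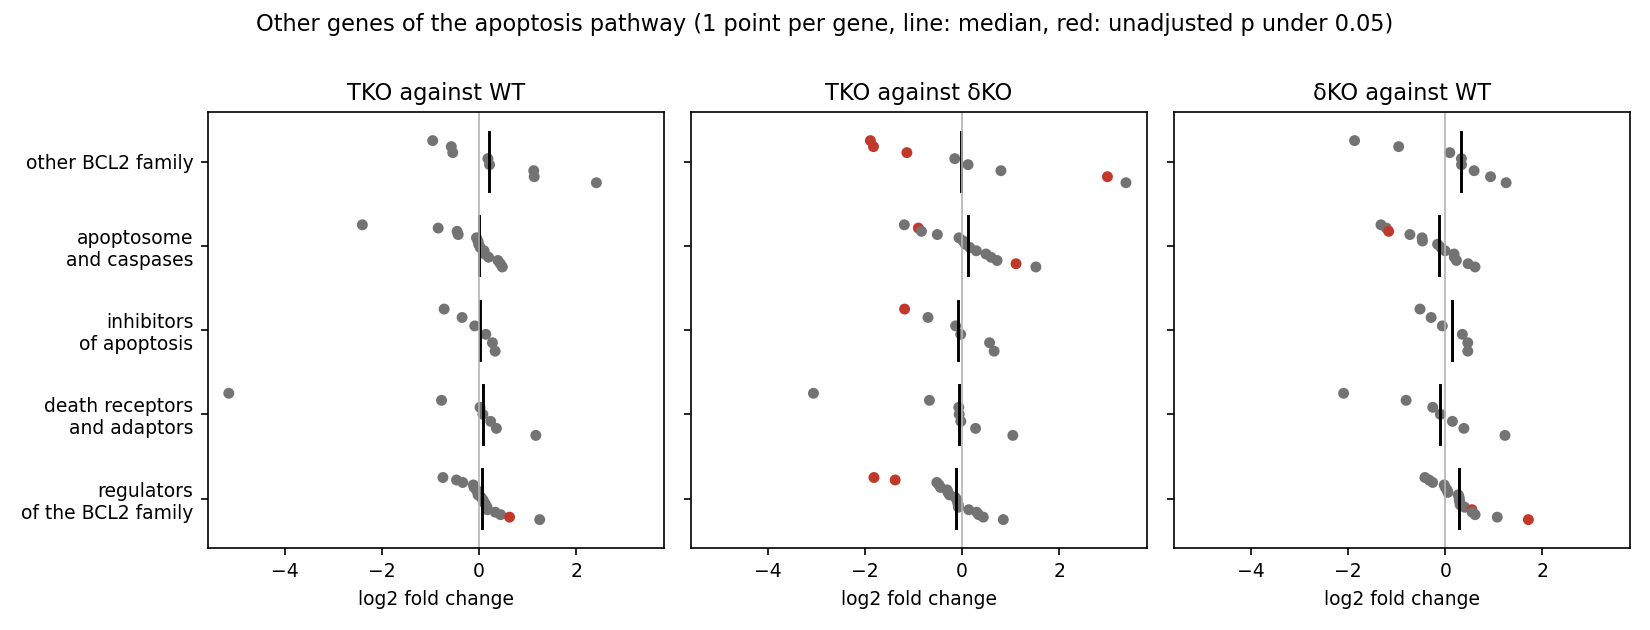
Log2 fold change (x axis) of each tested gene in 5 lists of other apoptosis genes (y axis) for the 3 comparisons, with 1 point per gene, a black line at the list's median and red for an unadjusted p under 0.05. The list medians lie between -0.13 and 0.33, and 9 of the 53 genes are red in TKO against δKO.

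Among the other BCL2 family genes, 8 of 15 were tested. Hrk had 0 counts in every library, and Bik, Bcl2l10, Bcl2l15 and the near-identical copies Bcl2a1a, Bcl2a1b and Bcl2a1d were too low to test. Bok, a BAX relative, was at 1.22, 3.60 and 2.37 CPM in TKO, above all δKO libraries at 0.239, 0.570 and 0.0737, which held 6, 32 and 2 counts. Its log2 fold change for TKO against δKO was 2.99 (SE 1.19), with an edgeR adjusted p of 0.464. Bok in WT lay in between, at 1.34, 1.16 and 0.788 CPM, overlapping TKO. Bcl2l13, a mitophagy receptor of the family, had a log2 fold change of -1.14 (SE 0.41) for TKO against δKO with overlapping libraries and an edgeR adjusted p of 0.464, and δKO replicate 1 was its highest library at 121.1 CPM.

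Downstream of the mitochondrion, 14 of 14 apoptosome and caspase genes were tested. Apaf1, the scaffold that cytochrome c activates, was at 64.5, 55.6 and 73.0 CPM in TKO and at 149.3, 80.0 and 131.4 in δKO, without overlap. Its log2 fold change was -0.90 (SE 0.31), with an edgeR adjusted p of 0.464, and WT overlapped TKO at 116, 70.0 and 74.1 CPM. Cycs, which encodes cytochrome c itself, was at 15.5, 50.2 and 24.5 CPM in TKO and at 56.0, 51.7 and 54.1 in WT. The TKO libraries were lower without overlap, at a log2 fold change of -0.84 (SE 0.40) and an edgeR adjusted p of 1.00. Dffa, the inhibitor of the caspase-activated DNase, was lower in every δKO than in every WT library, with a log2 fold change of -1.16 (SE 0.50) and an edgeR adjusted p of 0.699.

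Of the 6 inhibitors of apoptosis, Naip2 had the smallest p in both TKO comparisons, at a log2 fold change of -0.72 (SE 0.42) against WT and -1.19 (SE 0.42) against δKO, with edgeR adjusted p values of 1.00 and 0.464. It belongs to a multigene family whose reads may be shared between copies. Xiap and Birc2, which block caspases and regulate death receptor signaling respectively, had log2 fold changes of 0.33 (SE 0.32) and 0.28 (SE 0.27) for TKO against WT. Among the 7 death receptor genes tested, Tnfrsf10b, a TRAIL receptor gene, was at 21.1, 12.5 and 15.3 CPM in TKO and 7.41, 8.65 and 5.66 in WT. The TKO libraries were all higher, at a log2 fold change of 1.17 (SE 0.59) and an edgeR adjusted p of 1.00, but δKO libraries at 30.4, 7.09 and 13.6 CPM spanned both groups. Fas was near the detection limit, with 1, 29 and 80 counts in WT and 3, 0 and 0 in TKO, and its fitted log2 fold change of -5.16 (SE 2.39, edgeR adjusted p 1.00) rests on those few counts.

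The list of regulators of the family held 19 genes, 18 of them tested. Akt2, which encodes an AKT kinase, was higher in every TKO than in every WT library, at 0.44 (SE 0.25) on the log2 scale. It was also higher in every δKO than in every WT library, at 0.55 (SE 0.25). The edgeR adjusted p values were 0.9996 and 0.699. Of all tested genes, 6.88% and 4.13% were higher without overlap in these comparisons. Ddit3, which encodes the stress factor CHOP, was lower in every TKO than in every δKO library, with a log2 fold change of -1.82 (SE 0.59) and an edgeR adjusted p of 0.464, and δKO replicate 1 held its highest level at 105.2 CPM. Foxo1, one of the factors that bind the FOXO core, was at 186.6 CPM in δKO replicate 1 and between 20.7 and 34.9 CPM in the other 8 libraries. Its log2 fold changes of 1.71 (SE 0.63) for δKO against WT and -1.38 (SE 0.62) for TKO against δKO, with edgeR adjusted p values of 0.699 and 0.486, stand beside the 81.6 ± 90.9 CPM (SD, n = 3) that this library gave the δKO group.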

How the data were processed

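Sorted LT-HSC RNA was amplified with the Ovation RNA-Seq V2 system and sequenced. According to the methods and the submitters' processing notes, the authors trimmed reads with Trim Galore 0.3.7, aligned them to mm10 with STAR 2.5.1b and took read counts per gene. Each sample had 2 technical runs. The annotation, the strand setting and how runs were joined are not given in the sources used here. The deposited raw counts per gene were used. The deposited normalized table was these counts divided by 1 factor per library and was not used. Of 47643 gene IDs, 47224 matched GENCODE M21 without their version, which gave symbols, positions and exon lengths.

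The members and lists were chosen with earlier results of these data known. Genes were named by a rule: all 10 members, the 3 smallest p-values per list and comparison, the 3 genes most like each of Bcl2, Bcl2l1 and Mcl1, and the targeted genes. A gene of the regulator list that this rule names is not reported here. Counts were filtered with filterByExpr (minimum count 10, minimum total 15), scaled by TMM and fitted with edgeR 4.0.16 (quasi-likelihood, 1 mean per genotype, all 9 libraries, 6 residual degrees of freedom) in R 4.3.3, with p-values adjusted over all 18205 genes. CPM used TMM-scaled library sizes, and intervals are 95%. Alternatives were other scalings and filters, a replicate block, genes detected per library as covariate, fits to the groups compared, DESeq2 1.42.0, limma 3.58.1 voom with quality weights, each library left out and, added later, a neutrophil marker covariate. Scripts were tested on simulated data. Same-numbered libraries correlated between -0.0359 and 0.0829 in their deviations from group means, so the numbers were not taken to pair them.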

Additional observations from a re-analysis of the deposited data

How the results depend on the processing

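With 3 libraries per genotype and amplified cDNA, the median standard error of a tested gene was 0.78 on the log2 scale, so for the median gene a 2-fold difference lay inside the 95% interval's half-width. Across 20 alternatives, 17 of the 30 member results (10 genes in 3 comparisons) did not change sign. The number of members called was 0 in every alternative, apart from DESeq2 on the groups compared, which called 1 (Pmaip1) for TKO against WT. The number of all genes called for TKO against WT was 9 with edgeR on the groups compared, 63 with DESeq2 on all libraries, 418 with DESeq2 on the groups compared, 12 with limma voom and 1 to 4 with 1 library left out, the 4 without δKO replicate 1. For TKO against δKO it was 335 with DESeq2 on all libraries and 83 on the groups compared. For δKO against WT it was 79 and 51, and 0 with edgeR on the groups compared. The causes were not tested. Upper-quartile scaling moved the all-gene median of log2 fold changes from -0.06 to 0.08 for TKO against δKO and from 0.05 to -0.10 for δKO against WT. Pmaip1 had no value under the filter on at least 10 counts in every library.

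With the replicate block, 0 members were called in each comparison, and all genes called numbered 1, 0 and 1. Members at an unadjusted p under 0.05 went from 3 to 0 for TKO against δKO, where Pmaip1 was -1.81 (edgeR p 0.390) and Bad -0.074, and δKO against WT gave 1, Bid. The block drops the unnumbered δKO library from that contrast. It turned Bax to -0.61 for TKO against WT and -0.079 for TKO against δKO, Bcl2l1 to -0.027 for TKO against δKO and Bcl2l11 to 0.21 for δKO against WT. Limma voom turned Bax to -1.09 and -0.44 in the TKO comparisons, and, for TKO against δKO, Bbc3 to -0.094 and Bid to -0.081. Genes detected as a covariate turned Bbc3 to -0.14 for TKO against δKO and, for δKO against WT, Bcl2l11 to 0.090 and Pmaip1 to 0.071. The neutrophil covariate turned Bcl2l1 to -0.11 and Bad to 0.46 for TKO against WT, Bcl2l1 to -0.19 and Bad to 0.32 for TKO against δKO, and Bax to 0.35, Pmaip1 to 0.00091 and Bad to 0.13 for δKO against WT.

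With 1 library left out in turn, signs changed within these ranges of log2 fold change: Bax -1.43 to 0.67 for TKO against WT, and, for TKO against δKO, Bcl2l1 -0.14 to 0.36, Bax -0.82 to 1.84, Bcl2l11 -0.50 to 0.13, Bbc3 -0.44 to 0.49 and Bid -0.26 to 0.40. For δKO against WT they were -1.57 to 0.40 for Pmaip1 and -0.99 to 0.075 for Bad. Mcl1 stayed between -0.74 and -0.41 and Bak1 between -0.78 and -0.58 for TKO against δKO. At an unadjusted p under 0.05, Bak1 passed in 16 and Mcl1 in 8 of the 20 alternatives of that comparison. Pmaip1 passed in 11 of the 19 alternatives that gave it a value there, and in 15 of 19 for TKO against WT.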
